A study of Mus musculus with 1 sample.

Results

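Cholesterol synthesis and its control by SREBP2 were described through 8 mouse genes in a single-cell library of MC38 colorectal tumors. The genes were given by name: the mevalonate pathway enzymes Hmgcs1 and Idi1, the squalene enzymes Fdft1 and Sqle, the sterol ring enzymes Lss and Cyp51, and the regulators Insig1 and Srebf2. These are 8 of the 32285 genes counted, and all 8 were detected. The rule that lists them uses no measured value, but they were chosen with earlier results of these data known. The library held cells from 5 tumors pooled before capture, so there was no biological replicate. MC38 is a transplantable colon carcinoma line, and the tumors had been grown under the skin of wild type female C57BL/6J mice aged 4 to 6 weeks. The labels name no short hairpin for this library, and it was taken as the control arm of a study that depleted Atp6v0a1 in MC38 cells. The depleted arm was not analysed here.

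Cholesterol is built from acetyl-CoA through mevalonate, isoprenoid units, squalene and lanosterol. SREBP2, the product of Srebf2, is held in the endoplasmic reticulum by SCAP and by INSIG proteins while sterols are plentiful. When sterols fall it moves to the Golgi, is cleaved, and its released part enters the nucleus to raise transcription of the synthesis enzymes and of genes for sterol uptake. Insig1 is itself a target, and so closes a feedback loop. Cells with surplus sterol instead use LXR receptors, which raise the exporters Abca1 and Abcg1.

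After filtering, 4443 of 5307 barcodes were kept, with a median of 10442 unique molecular identifiers (UMIs, counted transcripts). Clusters were named from marker lists, giving 1861 cells in 3 tumor clusters, 1333 macrophage-like, 232 monocyte-like, 163 T and NK-like and 57 fibroblast-like cells. Levels are given in CPM, the pooled UMIs of a gene in a cell group for every 1000000 UMIs there, and the range in brackets is the exact Poisson 95% interval. Such intervals cover counting error only, not the spread between mice or libraries, and no test of any difference was possible. A gene was called higher or lower where the ratio of 2 groups reached 1.5-fold in either direction and at least 50 UMIs were counted in both groups together. Levels are per UMI, not per transcript length, so they were compared between groups and not between genes. In the 667 barcodes removed for a high mitochondrial share, 5 of the 8 genes were 1.5-fold or more above kept cells with mitochondrial UMIs left out, beside 53.7% of 12966 genes higher and 18.0% lower.

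Tumor clusters were named by a rule that required Shisal2b and Rhox5, which mark MC38, at 5 times the myeloid level or more. Their levels there, 217 and 693 CPM, therefore do not check the name. The X inactivation transcript Xist, which the rule did not use, was at 2.86 in tumor clusters and at 796 in macrophage-like cells of the female hosts. In each tumor cluster 6 to 8 of the 12 listed MC38 markers were raised. Rhox6, Rhox9 and Krt18 had 0 UMIs in all 3 clusters, and Krt8 was at 0.065 to 0.107 CPM against 0.071 in macrophage-like cells. Of the 3 tumor clusters, the Col3a1-high cluster (579 cells) carried 2698 CPM of Col3a1 and also passed the fibroblast list, although its Col1a2 was at 10.7 against 9368 in fibroblast-like cells. A cycling Col3a1-low cluster held 982 cells. The other Col3a1-low cluster (300 cells) had been proposed as non-cycling from its Mki67, at 36.7 CPM against 89.5 in the cycling cluster. Top2a (155 against 313) and Cenpf (47.1 against 125) were lower there too. Ube2c (455 against 360), Birc5 (310 against 269) and Cdk1 (203 against 185) were instead higher. With cell cycle genes going both ways, the cluster was not given that name. It is called Malat1-poor here, because the nuclear transcript Malat1 was at 293 CPM against 2851 in the cycling and 9671 in the Col3a1-high cluster. Its median mitochondrial share was 0.148%, and the muscle genes Acta1 and Ckm were among its leading genes.

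The first enzyme of the group, Hmgcs1, makes HMG-CoA, from which mevalonate is formed. It lies at chr13:119690379-119708260 on the plus strand (GRCm38) and overlaps an antisense RNA gene, as Lss does. Its level was 76.7 (72.4 to 81.2) in Col3a1-high tumor cells and 61.8 (59.7 to 64.0) in the cycling cluster. The Malat1-poor cluster stood at 30.8 (27.4 to 34.6), close to the 25.9 (16.0 to 39.6) of T and NK-like and the 25.3 (17.4 to 35.5) of monocyte-like cells. Fibroblast-like cells reached 46.9 (30.05 to 69.8) from 24 UMIs, and macrophage-like cells had the lowest level, 16.7 (14.7 to 19.02). Hmgcs1 thus spanned a wider range among tumor clusters than between the Malat1-poor cluster and the immune groups. Between neighbours in this order, the interval of the ratio left out 1 only from Col3a1-high to cycling and from monocyte-like to macrophage-like cells.

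Idi1, at chr13:8885501-8892451 on the plus strand, interconverts the isoprenoid units made from mevalonate. Its levels in tumor cells were 47.6 (45.7 to 49.5) in the cycling, 38.0 (35.0 to 41.2) in the Col3a1-high and 37.1 (33.3 to 41.2) in the Malat1-poor cluster. Outside the tumor clusters Idi1 was at 25.4 (13.5 to 43.4) in fibroblast-like, 23.5 (14.1 to 36.6) in T and NK-like, 17.6 (11.2 to 26.4) in monocyte-like and 12.8 (10.95 to 14.8) in macrophage-like cells. The cycling cluster stood apart from the next group, and no other pair of neighbours did.

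Fdft1 condenses farnesyl diphosphate to squalene, the first step committed to sterols. The gene, at chr14:63145150-63179578 on the minus strand, differed little among tumor clusters, with 43.3 (40.04 to 46.7) in the Col3a1-high, 39.1 (35.2 to 43.3) in the Malat1-poor and 37.6 (36.0 to 39.3) in the cycling cluster. It was at 25.4 (13.5 to 43.4) in fibroblast-like, 12.3 (5.92 to 22.7) in T and NK-like, 9.19 (4.75 to 16.1) in monocyte-like and 8.41 (6.96 to 10.1) in macrophage-like cells. No neighbours in that order were separated beyond counting error. Fdft1 overlaps the lysosomal protease gene Ctsb on the opposite strand, and whether the counting used strand is not given in the sources used here. Ctsb ran the other way, at 298 in tumor clusters and 2654 in macrophage-like cells.

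Sqle, the oxygen-dependent enzyme that turns squalene into its epoxide and another control point of the pathway, lies at chr15:59315077-59331192 on the plus strand. It stood at 56.4 (52.8 to 60.3) in the Col3a1-high, 51.4 (49.5 to 53.4) in the cycling and 32.3 (28.8 to 36.2) in the Malat1-poor cluster, and all 3 were separated. Levels elsewhere were 21.5 (10.7 to 38.5) in fibroblast-like, 16.1 (9.96 to 24.6) in monocyte-like, 12.3 (5.92 to 22.7) in T and NK-like and 8.83 (7.35 to 10.5) in macrophage-like cells. Below the tumor clusters no neighbours were separated.

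Lss closes the sterol ring to give lanosterol, and Cyp51 removes a methyl group from it. Lss (chr10:76531588-76557138, plus strand) was sparse, with 781 UMIs in all tumor cells, and was at 10.7 (9.83 to 11.6) in the cycling, 10.2 (8.67 to 11.9) in the Col3a1-high and 7.09 (5.48 to 9.02) in the Malat1-poor cluster. Only 4 to 7 Lss UMIs were counted in each of the fibroblast-like, T and NK-like and monocyte-like groups, so their levels of 7.82, 6.17 and 5.36 could not be ordered, while 41 UMIs in macrophage-like cells gave 2.92 (2.10 to 3.96).

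Cyp51 (chr5:4081145-4104746, minus strand) was at 92.1 (89.6 to 94.8) in the cycling, 80.7 (76.3 to 85.4) in the Col3a1-high and 48.0 (43.7 to 52.7) in the Malat1-poor cluster, with all 3 separated. It was at 33.2 (19.4 to 53.2) in fibroblast-like, 28.4 (18.0 to 42.6) in T and NK-like, 15.3 (9.36 to 23.7) in monocyte-like and 14.3 (12.4 to 16.4) in macrophage-like cells, where neighbours were not separated. Cyp51 overlaps Akap9 on the opposite strand, which was at 46.7 in tumor clusters and 49.7 in macrophage-like cells.

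The regulators were spread differently. Insig1 (chr5:28071363-28078662, plus strand) lay at 20.6 (19.4 to 21.9) in the cycling and 19.7 (17.5 to 22.0) in the Col3a1-high cluster, and at 15.6 (6.75 to 30.8) in fibroblast-like, 13.4 (11.5 to 15.4) in macrophage-like and 13.0 (7.58 to 20.8) in monocyte-like cells. Below these came the Malat1-poor tumor cluster at 9.67 (7.78 to 11.9) and T and NK-like cells at 6.17 (2.004 to 14.4) from 5 UMIs. Insig1 was thus the only one of the 8 genes in which a tumor cluster ranked under macrophage-like cells, and no neighbours in its order were separated. Monocyte-like cells, with 17 UMIs, lay between macrophage-like and Malat1-poor cells in that order. The comparison of neighbours therefore does not set the macrophage-like cells directly against the Malat1-poor cluster.

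Srebf2, which encodes SREBP2 itself, is the longest of the 8 loci (chr15:82147181-82205379, plus strand, with the microRNA gene Mir33 inside it). Its level was 64.4 (60.5 to 68.6) in the Col3a1-high and 54.2 (52.2 to 56.2) in the cycling cluster, and then 52.8 (41.1 to 66.9) in monocyte-like and 50.6 (36.3 to 68.7) in T and NK-like cells. The Malat1-poor cluster followed at 38.4 (34.5 to 42.6), macrophage-like cells at 30.1 (27.3 to 33.1) and fibroblast-like cells at 25.4 (13.5 to 43.4). Monocyte-like and T and NK-like cells were not separated from the cycling tumor cluster for Srebf2, whereas for Sqle and Cyp51 their intervals lay wholly below those of all 3 tumor clusters. Of the neighbours in the Srebf2 order, Col3a1-high and cycling were separated, and Malat1-poor and macrophage-like.

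**Figure D1:**
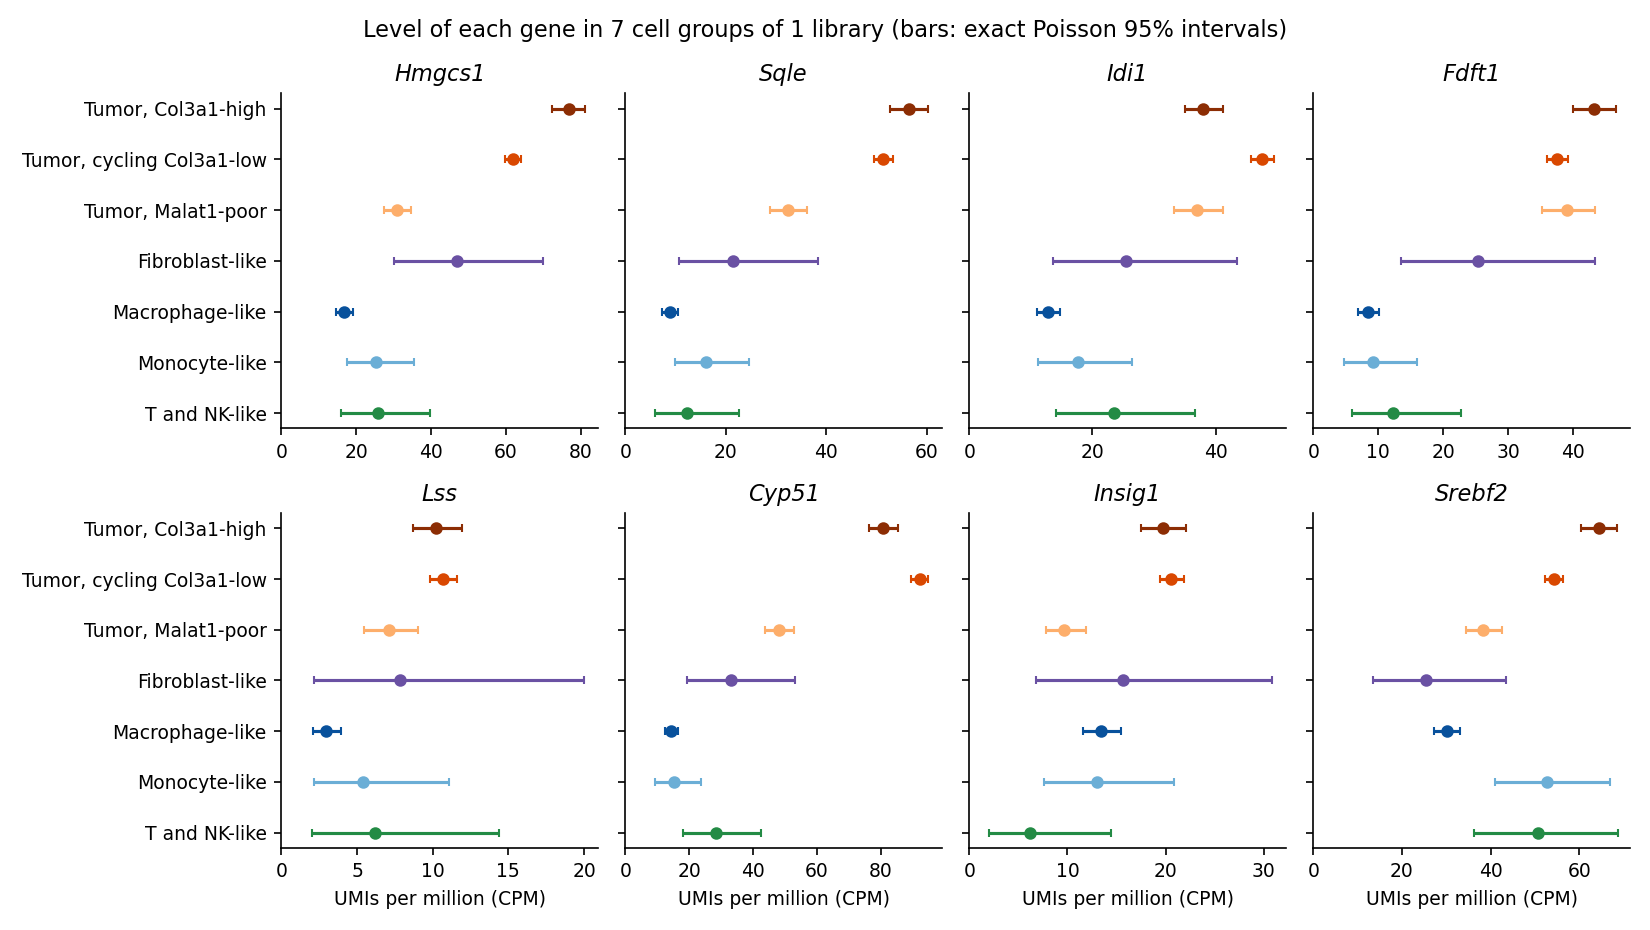
Level of each of the 8 genes (CPM, linear axes from 0) in 7 cell groups of the pooled control tumors, with exact Poisson 95% intervals. For each of the 6 enzymes the highest level is in a tumor cluster, 92.1 for Cyp51 in the cycling cluster, and the lowest is in macrophage-like cells, 14.3 for Cyp51, while Srebf2 in monocyte-like (52.8) and T and NK-like cells (50.6) lies near its tumor levels.

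Tumor clusters were first set against macrophage-like cells, the largest host population. Of the 8 genes, 7 were higher in tumor clusters and 0 lower, against 39.5% of 12523 genes higher and 26.9% lower. The median over all genes was a ratio of 1.196, and over the 8 genes 3.56. Cyp51 had the highest ratio of the group, 5.90 (5.13 to 6.83), followed by Sqle at 5.67 (4.74 to 6.84) and Fdft1 at 4.63 (3.85 to 5.61). Hmgcs1 was 3.65-fold higher (3.20 to 4.17), and Idi1 and Lss were both 3.48-fold higher, with intervals of 2.99 to 4.07 and 2.54 to 4.89. Srebf2 was 1.80-fold higher (1.63 to 1.998), and Insig1, at 1.43 (1.22 to 1.67), stayed under the 1.5-fold limit. The enzymes therefore differed more between these groups than either regulator did, with no overlap between their intervals and those of Srebf2 and Insig1.

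The rest of the pathway was read in the same comparison. Of 22 cholesterol synthesis enzymes, 19 were higher in tumor clusters and 2 were lower. Fdps, which makes farnesyl diphosphate for Fdft1, differed most, with 577 CPM against 70.2 and a ratio of 8.21 (7.71 to 8.75). The exceptions fell late in the pathway: Tm7sf2 was at a ratio of 0.292 (0.212 to 0.405), Ebp at 0.497 (0.463 to 0.534), and Lbr, within the limits, at 0.796 (0.703 to 0.904). Tm7sf2 and Lbr encode alternative reductases for the product of Cyp51, and Ebp a later isomerase.

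Among 11 genes of SREBP control, 2 were higher in tumor clusters, Srebf2 and Srebf1 (ratio 1.70, 1.502 to 1.92), and 1 was lower. Both shares were smaller than the 39.5% of all genes higher and 26.9% lower. The lower gene was Mylip, an LXR target that encodes a ubiquitin ligase, at 0.175 (0.151 to 0.202). Scap, which escorts SREBP2, was at 0.886 (0.741 to 1.07), and Insig2 at 0.845 (0.741 to 0.966). Among further SREBP2 targets of uptake and transport, Tmem97 was 5.03-fold higher (4.46 to 5.68) and Stard4 1.92-fold (1.59 to 2.32), while Npc1, which exports cholesterol from lysosomes, was lower at 0.339 (0.307 to 0.374).

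Neighbouring lipid pathways were counted in the same way. Of 7 genes of the isoprenoid branch 3 were higher, a share near the 39.5% of all genes, led by Pdss1 of ubiquinone synthesis at 3.78 (2.997 to 4.83), and 0 were lower. Of 10 measured genes of fatty acid synthesis and desaturation 9 were higher, with a median ratio of 3.50 beside 3.48 for the 22 sterol enzymes, and Scd1, which desaturates stearate, at 9.28 (7.56 to 11.5). Of 6 genes of LXR and cholesterol export or storage 5 were lower: Abca1 was at 0.729 CPM in tumor clusters and 144 in macrophage-like cells, Abcg1 at 0.377 and 58.7, and Apoe at 220 and 27774. Tumor clusters thus held more transcripts of the synthesis enzymes and fewer of the export genes than macrophage-like cells, per UMI counted.

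**Figure D2:**
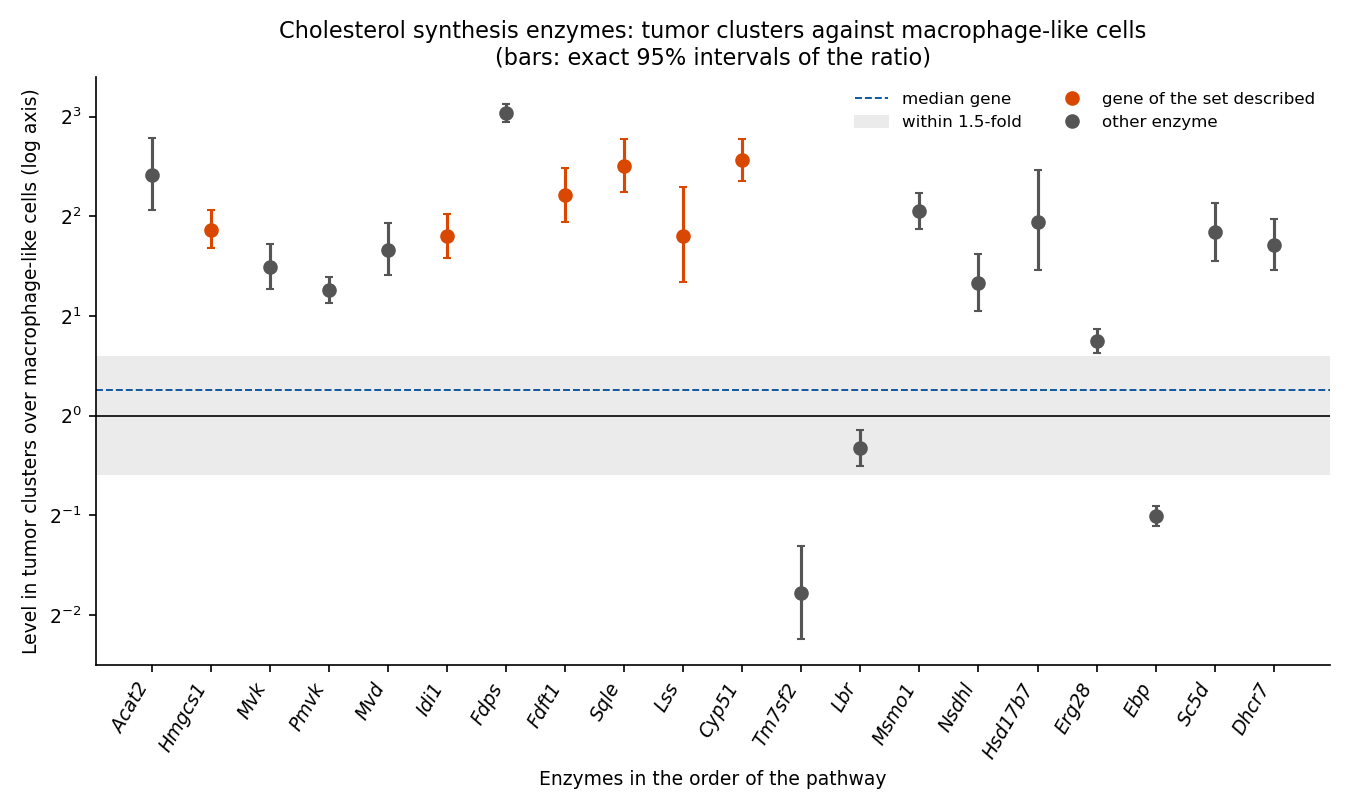
Ratio of the level in tumor clusters to that in macrophage-like cells (log axis, with exact 95% intervals) for 20 cholesterol synthesis enzymes in the order of the pathway, the enzymes among the 8 genes in orange. The grey band marks ratios within 1.5-fold and the dashed line the median gene at 1.196. Of these 20 enzymes, 17 lie above 1.5, with Fdps at 8.21, and Tm7sf2 (0.292) and Ebp (0.497) lie below.

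RNA freed from broken tumor cells can enter droplets that hold host cells, and 2 tumor genes gauged it. Shisal2b and Rhox5, which host cells should lack, stood in macrophage-like cells at 6.69% and 5.81% of their tumor level, in monocyte-like cells at 13.4% and 8.73%, in T and NK-like cells at 14.2% and 7.84% and in fibroblast-like cells at 3.60% and 14.9%. The 8 genes had higher values in each group: in macrophage-like cells they ranged from 16.9% of the tumor level for Cyp51 to 70.2% for Insig1. In monocyte-like cells the range was 18.1% for Cyp51 to 97.3% for Srebf2, and the intervals of Cyp51 (11.1% to 28.0%) and Fdft1 (12.2% to 41.3%) took in the Shisal2b share, so these levels could not be told from background. In T and NK-like cells it was 24.6% for Sqle to 93.1% for Srebf2, and the same held for Sqle (11.8% to 45.4%) and Insig1 (10.5% to 75.6%). With tumor RNA subtracted at the Shisal2b rate, all 8 genes were past 1.5-fold between tumor clusters and macrophage-like cells, as they were with the Malat1-poor cluster left out.

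Depth also differed, with a median of 37807 UMIs per tumor cell and 9869 per macrophage-like cell. Each cell was therefore thinned to 3000 UMIs and the UMIs of the 7 genes other than Srebf2 were added up. Shallower cells were left out: 60 of 579 Col3a1-high, 6 of 982 cycling and 36 of 300 Malat1-poor tumor cells, 66 of 1333 macrophage-like, 54 of 232 monocyte-like, 64 of 163 T and NK-like and 27 of 57 fibroblast-like cells. The means of the host groups, above all of the last 2 named, therefore describe their deeper cells. The mean sum was 0.982 UMIs in the cycling, 0.923 in the Col3a1-high and 0.621 in the Malat1-poor tumor cluster. It was 0.400 in fibroblast-like cells, 0.364 in T and NK-like, 0.292 in monocyte-like and 0.229 in macrophage-like cells. At this depth 10.5% (8.60% to 12.5%) of cycling tumor cells held 3 or more of these UMIs, and 0.316% (0.0861% to 0.806%) of macrophage-like cells did, by exact Clopper-Pearson intervals.

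Within the tumor, Col3a1-low cells were set against Col3a1-high cells. None of the 8 genes passed the limit, 0 higher and 0 lower, where 7.25% of 11766 genes were higher and 22.9% lower and the median gene was at 0.880. The ratios ran from 0.745 (0.697 to 0.796) for Hmgcs1 to 1.21 (1.11 to 1.33) for Idi1. The interval lay below 1 for Hmgcs1, Srebf2 (0.804, 0.748 to 0.864), Sqle and Fdft1, and above 1 for Idi1. When each cell was given equal weight, however, Hmgcs1, Srebf2 and Lss passed the limit as lower in Col3a1-low cells, and with each cell thinned to 1000 UMIs Sqle and Srebf2 passed as lower and Cyp51 as higher among the 6 genes that could be compared. Against these small ratios stood the cell cycle genes Top2a at 2.19 (2.10 to 2.30) and Mcm5 at 2.86 (2.55 to 3.22), and the thiolase gene Acat2 at 1.96 (1.71 to 2.26), the only one of the 22 enzymes past the limit.

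Levels also differed by depth inside the Col3a1-high cluster. With the Col3a1-high cells put into 4 equal groups from the fewest to the most UMIs per cell, Srebf2 was at 169, 98.5, 62.9 and 50.9 CPM. Lss went the same way, at 23.9, 13.5, 12.1 and 7.60, whereas Cyp51 was at 55.1, 57.6, 59.5 and 98.5 and Fdft1 at 23.9, 38.4, 35.0 and 49.8. In the cycling cluster Srebf2 was at 69.2 in the shallowest and 52.6 in the deepest group, and Lss at 8.27 and 10.5. The Malat1-poor cluster had Srebf2 at 40.3, 34.4, 45.8 and 35.3, with no order, and Lss at 4.03 in the shallowest and 6.42 in the deepest group. No intervals were set on the levels of these depth groups. Because Lss was sparse, no direction with depth is read for it in the cycling and Malat1-poor clusters. Shallow Col3a1-high cells therefore held a larger share of Srebf2 and a smaller share of Cyp51 than deep ones. With tumor cells under 10000 UMIs left out, the count for Col3a1-low against Col3a1-high cells stayed at 0. That setting was added after the data were seen. Thinning moved the count, as given above, and the cause of the pattern with depth was not tested.

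The cycling and the Malat1-poor clusters, both Col3a1-low, differed more. Of the 8 genes, 5 were higher in the cycling cluster and 0 lower, beside 36.5% of 11320 genes higher and 1.2% lower. Insig1 was 2.13-fold higher (1.72 to 2.67), Hmgcs1 2.004-fold (1.78 to 2.27), Cyp51 1.92-fold (1.74 to 2.12), Sqle 1.59-fold (1.41 to 1.80) and Lss 1.51-fold (1.17 to 1.98). Srebf2 was at 1.41 (1.27 to 1.58), Idi1 at 1.28 (1.15 to 1.44) and Fdft1 at 0.962 (0.859 to 1.08). The median gene was itself at 1.29 here, and with levels scaled to it 2 of the 8 stayed past the limit.

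Set against the Col3a1-high cluster, the cycling cluster had 0 of the 8 genes past the limit, beside 7.82% of 11667 genes higher and 19.7% lower, from 0.806 (0.753 to 0.862) for Hmgcs1 to 1.252 (1.14 to 1.37) for Idi1.

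Over the whole pathway, 6 of 22 enzymes were higher in the cycling than in the Malat1-poor cluster and 0 lower, a smaller share than the 36.5% of all genes, and their median ratio of 1.28 was close to the 1.29 of the median gene. Beside the genes above, Hsd17b7, a ketoreductase that acts after Cyp51, was 1.61-fold higher in cycling cells (1.23 to 2.15), but Fdps was at 1.02 (0.994 to 1.05), Mvk at 0.9496 (0.845 to 1.07), Mvd at 0.993 (0.873 to 1.13) and Tmem97 at 0.893 (0.838 to 0.953). Malat1 and the mitochondrial share were low in the same 300 cells, and their part in these ratios was not tested. With 3000 variable genes in the clustering, 0 of the 8 genes passed the limit, and 1 did after thinning to 1000 UMIs.

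**Figure D3:**
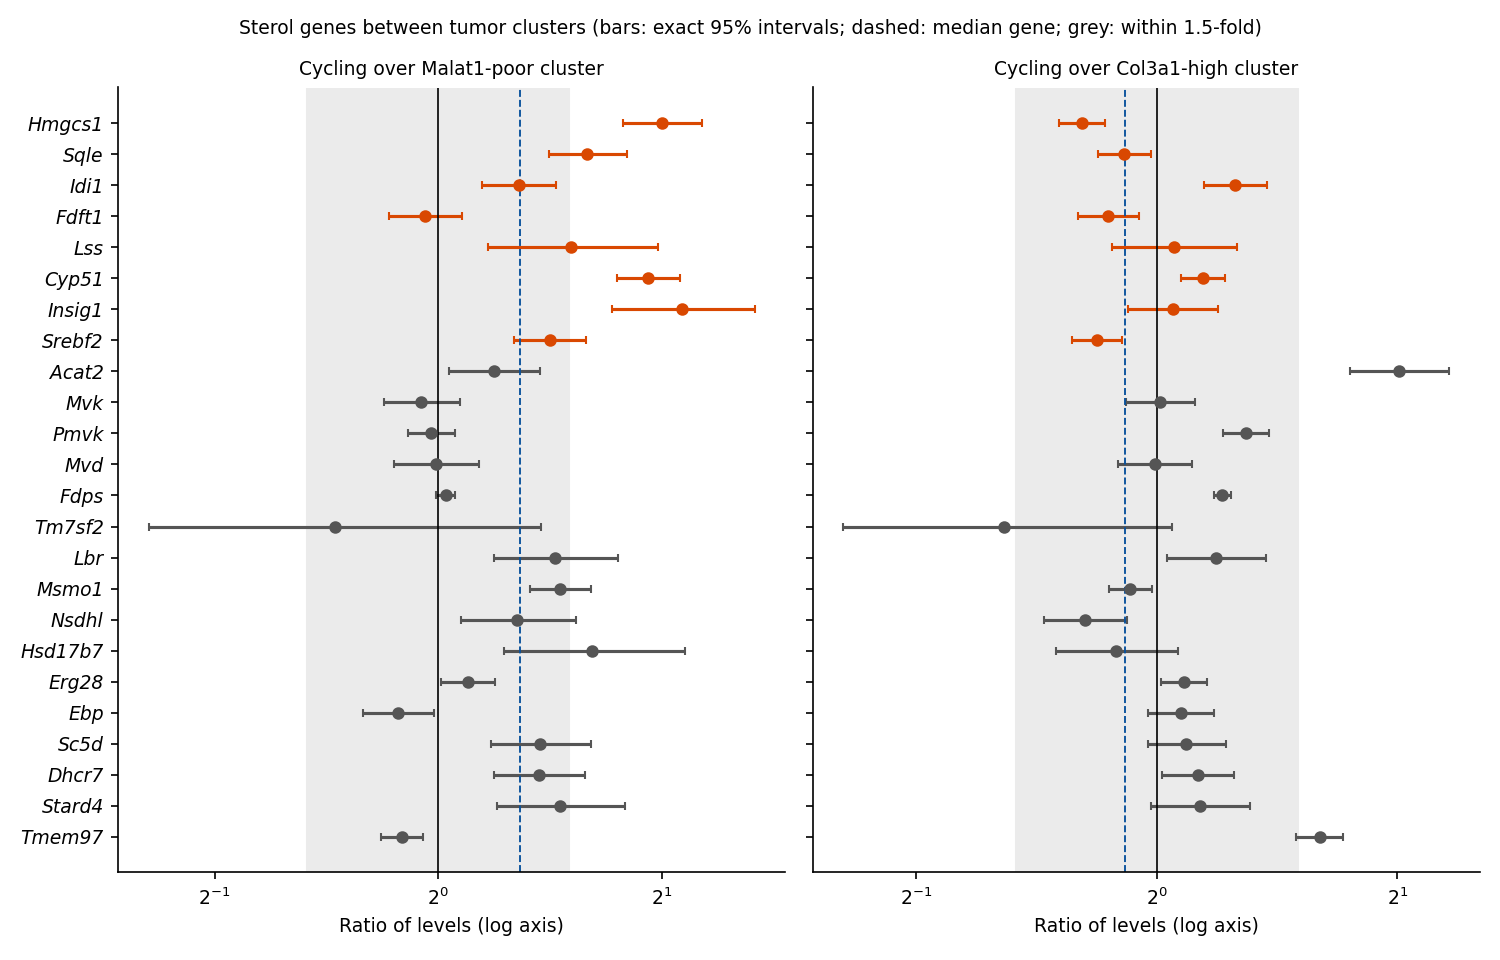
Ratios of levels of the 8 genes (orange) and other sterol genes (grey) in the cycling cluster over the Malat1-poor (left) and the Col3a1-high cluster (right), on log axes with exact 95% intervals. The grey band marks ratios within 1.5-fold and the dashed line the median gene, at 1.29 on the left and 0.912 on the right. Of the 8 genes, 5 lie past the band on the left, led by Insig1 at 2.13, and 0 on the right.

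Tumor cells were then compared with each other as single cells, to see which genes went with the synthesis genes. In 1550 tumor cells thinned to 10000 UMIs, with 311 shallower ones left out, each gene's log2(UMIs + 1) was correlated with that of the summed 7 genes other than Srebf2, leaving the gene itself out of the sum. These cells share a single library and a single thinned depth, and the values are a description. The 10 genes most like the sum among 3620 included Fdps (Pearson r 0.483), Msmo1 (0.395), Scd2 (0.339), Hsp90b1 (0.256), Pmvk (0.253), Fads2 (0.239), mt-Nd1 (0.231), Dbi (0.231) and Hsp90ab1 (0.230), against a median r of 0.0194 over all genes and a 99th percentile of 0.167. Fdps, Msmo1 and Pmvk are sterol enzymes, Scd2 and Fads2 are fatty acid desaturases, and Dbi binds acyl-CoA. The 3 tumor clusters were pooled for these values. Within the cycling cluster alone Fdps, Msmo1 and Scd2 still ranked 1 to 3, but mt-Nd1 ranked 15 (0.188) and Hsp90ab1 32 (0.149). Hsp90ab1 ranked 28 (0.187) in Col3a1-high and 4 (0.302) in Malat1-poor cells.

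The 8 genes themselves gave r of 0.362 for Cyp51, 0.359 for Hmgcs1, 0.332 for Idi1, 0.308 for Sqle, 0.263 for Fdft1, 0.222 for Insig1, 0.192 for Srebf2 and 0.141 for Lss, each against the sum of the others. Over the 21 pairs of the 7 target genes the median r was 0.147, from 0.00559 for Sqle with Lss to 0.266 for Hmgcs1 with Sqle. As background, the median r was 0.00679 over all pairs of the 7195 genes within 1.5-fold of the range of levels of the 8 genes. Pairs of Srebf2 with a target had a median r of 0.0734, below that of the target pairs. Within clusters the median over the 21 target pairs was 0.182 in Col3a1-high, 0.137 in cycling and 0.0641 in Malat1-poor cells. In Malat1-poor cells the target pairs ran from -0.0833 to 0.305, and the 95th percentile over background pairs set the same way was 0.134. In these 210 cells the median of the target pairs thus lay below that percentile but above the background median of 0.00258. Single pairs, such as Hmgcs1 with Idi1 (0.305) and with Sqle (0.252), lay above the percentile. Lss and Insig1 were the sparsest, with 151 and 278 UMIs in the thinned cells of all tumor clusters together. In the Malat1-poor cells alone they had 14 and 18 UMIs. No weak r is read as a finding.

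Spread from cell to cell differed too. Hmgcs1 had a variance 1.84 times its mean and Cyp51 1.71 times, more than 94.9% and 91.2% of genes of like mean in these cells. Srebf2, at 1.16 times, lay above 54.8% of genes of like mean. The transcript of the regulator was thus spread over tumor cells much like other genes of its level, and those of Hmgcs1 and Cyp51 were more uneven. Within the cycling cluster alone the value for Hmgcs1 was 1.71, above 96.2% of genes of like mean.

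**Figure D4:**
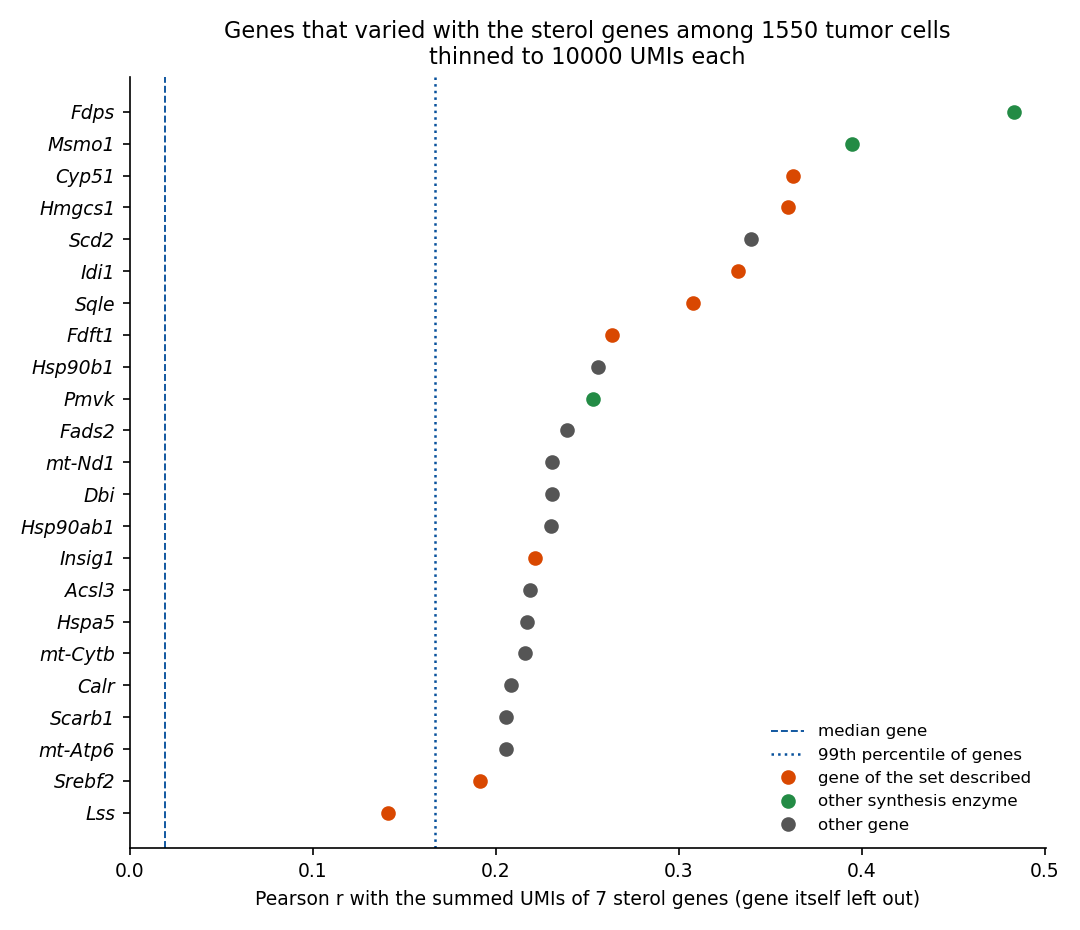
Pearson r across 1550 tumor cells, each thinned to 10000 UMIs, between each gene and the summed 7 genes other than Srebf2. Fdps (0.483) and Msmo1 (0.395) are the most alike, the 8 genes range from 0.141 for Lss to 0.362 for Cyp51, and the dashed and dotted lines mark the median (0.0194) and the 99th percentile (0.167) of 3620 genes. Other sterol enzymes are in green.

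The DNA before the start sites of the 8 genes was searched for the letters of sites that SREBP2 and its partners are known to use. RefSeq promoter windows (GRCm38.p6, 300 bases from 250 before to 50 after the start) were held for 6 of the 8 genes, all but Sqle and Fdft1. TCACNCCAC, the core of the sterol regulatory element, was found on either strand in 1 of the 6, Hmgcs1, and in 1.22% of 27025 windows of the same length. CCAAT, the NF-Y motif, was in all 6 and in 37.9% of windows, GGGCGG, the Sp1 motif, in all 6 and in 35.9%, and CACGTG, an E-box, in Insig1 and in 7.24%. The share of G and C was 52.3% in the Idi1 window and 64.7% to 71.7% in the others, beside a median of 52.7% over all windows. The shares of windows with a match were not matched for it, which bears most on GGGCGG. A match is a run of letters, not evidence of binding. The 250 bases before the start are printed 5′ to 3′ on the gene's strand for the gene with the sterol motif, for the enzyme with the highest tumor ratio and for the regulator, and capitals mark TCACNCCAC and CCAAT on either strand. The Hmgcs1 match, TCACCCCAC, begins 137 bases before the start. The windows are chr13:119690101-119690350 (plus) for Hmgcs1, chr5:4104698-4104947 (minus) for Cyp51 and chr15:82147019-82147268 (plus) for Srebf2.
Hmgcs1: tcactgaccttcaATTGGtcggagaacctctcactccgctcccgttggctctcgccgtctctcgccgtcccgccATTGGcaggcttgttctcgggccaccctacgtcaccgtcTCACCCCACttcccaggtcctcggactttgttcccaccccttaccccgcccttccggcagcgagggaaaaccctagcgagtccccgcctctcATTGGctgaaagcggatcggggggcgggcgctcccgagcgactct
Cyp51: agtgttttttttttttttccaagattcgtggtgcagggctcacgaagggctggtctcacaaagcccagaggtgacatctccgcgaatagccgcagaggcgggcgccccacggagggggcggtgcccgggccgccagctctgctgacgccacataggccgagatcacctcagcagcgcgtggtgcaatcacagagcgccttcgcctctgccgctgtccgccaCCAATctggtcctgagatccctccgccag
Srebf2: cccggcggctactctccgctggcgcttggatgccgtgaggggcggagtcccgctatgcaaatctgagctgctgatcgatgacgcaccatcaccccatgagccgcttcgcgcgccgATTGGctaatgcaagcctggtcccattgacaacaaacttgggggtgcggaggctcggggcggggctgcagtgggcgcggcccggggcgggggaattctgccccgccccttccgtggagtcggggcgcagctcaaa

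Among host cells, monocyte-like cells were set against macrophage-like cells. Of the 7 genes with 50 UMIs or more, 3 were higher in monocyte-like cells and 0 lower, beside 6.59% of 9792 genes higher and 20.6% lower. Sqle was 1.82-fold higher (1.09 to 2.91, from 21 UMIs), Srebf2 1.75-fold (1.34 to 2.27) and Hmgcs1 1.51-fold (1.02 to 2.18). Cyp51 was at 1.07 (0.640 to 1.70) and Insig1 at 0.972 (0.555 to 1.60). The Shisal2b share was also higher in monocyte-like cells, 13.4% against 6.69% of the tumor level, and the part of tumor RNA was not tested gene by gene. The count was 1 at a Leiden resolution of 0.8 and also with 20 principal components. Abca1 was lower at 0.266 (0.197 to 0.353).

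T and NK-like cells, a cluster led by granzyme and Cd3 genes, had 4 of 7 genes higher and 1 lower than macrophage-like cells, beside 24.5% of 9901 genes higher and 26.8% lower. Cyp51 was 1.98-fold higher (1.23 to 3.06), Idi1 1.84-fold (1.08 to 2.96) and Srebf2 1.68-fold (1.19 to 2.32). The ratio for Hmgcs1 was 1.55, with an interval that included 1 (0.941 to 2.42). Insig1, which restrains SREBP2, was at 0.461 (0.148 to 1.09) from 5 UMIs. Only 5 to 41 UMIs of each gene were counted in these 163 cells, so the individual ratios are loosely set. Set against tumor clusters, T and NK-like cells were lower for 7 of the 8 genes, beside 40.1% of 11973 genes lower and 25.7% higher, and at 0.931 (0.667 to 1.27) for Srebf2.

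The 57 fibroblast-like cells lay between tumor clusters and macrophage-like cells for the enzymes. Of the 8 genes, 5 were lower than in tumor clusters and 0 higher, beside 29.0% of 11884 genes lower and 32.8% higher. Cyp51 was at 0.393 (0.229 to 0.630), Sqle at 0.429 (0.214 to 0.769), Srebf2 at 0.467 (0.249 to 0.8003), Idi1 at 0.572 (0.304 to 0.980) and Fdft1 at 0.653 (0.347 to 1.12). Hmgcs1 was within the limits at 0.768 (0.492 to 1.14). Against macrophage-like cells 5 of 7 were higher, beside 31.7% of 9967 genes, and Fdft1 had the highest of these ratios, 3.02 (1.56 to 5.37), while Srebf2 was at 0.843 (0.445 to 1.46). Each value rests on 4 to 24 UMIs.

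Macrophage-like cells were compared between states, since Cxcl9 marks an interferon response and Arg1 and Spp1 a tissue remodelling state. Cxcl9 cells (526) had 4 of 7 genes higher than Arg1 and Spp1 cells (295) and 0 lower, beside 16.6% of 8458 genes higher and 7.05% lower, and the median gene was at 1.11. Cyp51 was at 17.7 against 9.52 CPM, a ratio of 1.85 (1.23 to 2.84), and Idi1 at 12.9 against 7.07, a ratio of 1.82 (1.13 to 3.01). Sqle had a ratio of 1.64 with an interval that included 1 (0.953 to 2.91), and Srebf2 1.504 (1.14 to 1.99). Hmgcs1 was at 1.13 (0.771 to 1.66). In the same cells Abca1 was lower, at 0.399 (0.353 to 0.450). The count was 2 with levels scaled to the median gene, and after thinning to 1000 UMIs no gene had enough UMIs to be compared.

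The 180 proliferating macrophage-like cells had 3 of 7 genes higher than the other macrophage-like cells in the same comparison of states, and 0 lower, beside 14.5% of 9621 genes higher and 7.9% lower. Idi1 was 2.04-fold higher (1.46 to 2.82), Sqle 1.91-fold (1.26 to 2.86) and Srebf2 1.59-fold (1.27 to 1.98), and Hmgcs1 was at 1.39 (1.004 to 1.89). Among enzymes Lbr had the highest ratio, 3.69 (2.93 to 4.65). Abca1, at 0.487 (0.417 to 0.565), and Apoe, at 0.458 (0.453 to 0.463), were lower. A cluster of 44 dendritic-like cells had 6 of 7 genes higher and 1 lower than macrophage-like cells, beside 18.2% and 30.1% of 9725 genes, with Idi1 at 4.47 (2.79 to 6.86) from 24 UMIs and Insig1 at 0.532 (0.109 to 1.58) from 3.

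**Figure D5:**
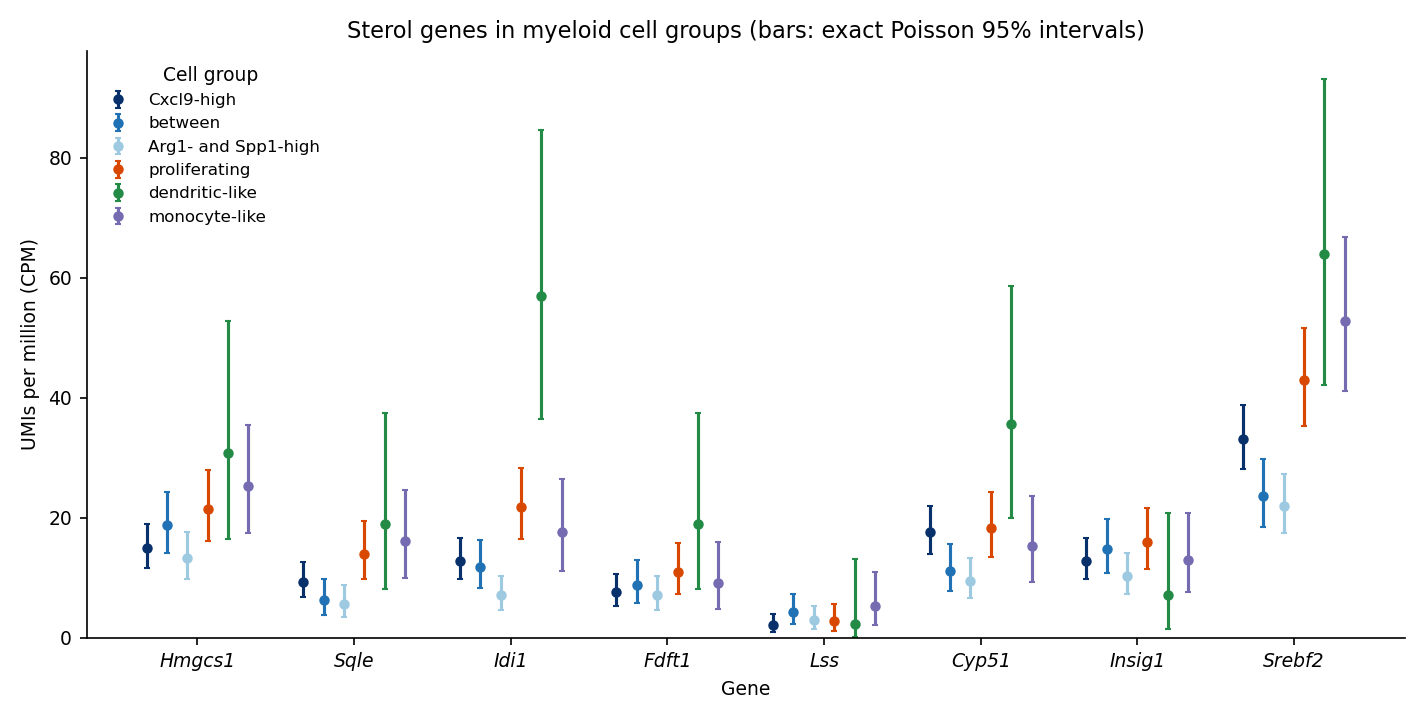
Level of each of the 8 genes (CPM, linear axis from 0, with exact Poisson 95% intervals) in 4 states of macrophage-like cells and in dendritic-like and monocyte-like cells. Idi1 is at 21.8 in proliferating, 12.9 in Cxcl9 and 7.07 in Arg1 and Spp1 cells, and the wide intervals of the 44 dendritic-like cells rest on 1 to 27 UMIs a gene.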

How the data were processed

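The sample was 1 droplet library (10x Genomics 3′ chemistry, version 3.1) of 5 pooled MC38 tumors. Per the matrix header, the authors made the deposited UMI counts with Cell Ranger 5.0.1, and the labels name GRCm38 (mm10) and Seurat. The deposited counts are whole numbers that have not been normalized; they total 106631000 UMIs, with 511 to 231902 per barcode. From the 5307 barcodes, 667 with over 20% mitochondrial UMIs and 197 predicted doublets were removed, and a minimum of 200 genes was applied. Counts were scaled per cell to 10000, log transformed, reduced to 30 principal components of 2000 variable genes without the sterol genes, joined to 20 neighbours and clustered (Leiden, resolution 0.5). Myeloid cells were clustered again. Clusters were named where at least 3 listed markers were raised 2-fold, and clusters left unnamed (656 cells) were not used. The measure of variable genes and the rule that names tumor clusters were settled after clusters had been seen, and the genes and lists were chosen with earlier results of these data known.

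Levels, ratios and shares carry exact Poisson, conditional binomial and Clopper-Pearson 95% intervals, which cover counting error only. The named genes are the 8 and the other genes of the fixed lists, with values for those described. Some genes of those lists are not reported here by name, though the lists' counts include them. Promoters came from RefSeq (GRCm38.p6) and gene positions from the GENCODE M21 annotation. Ratio and correlation steps were tested on simulated data. Alternatives covered the cell filters, the clustering, the scaling and the fold limit. Tools were Python 3.11.15, NumPy 2.4.6, SciPy 1.17.1, scikit-learn 1.9.0, igraph 0.11.9 and leidenalg 0.10.2.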

Additional observations from a re-analysis of the deposited data

Results flagged for a closer look

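The 667 barcodes removed for over 20% mitochondrial UMIs were outside the comparisons, and the 8 genes were counted there above the 1.35 UMIs per 1000000 (CPM) that 3 counts would give. With mitochondrial UMIs left out, Srebf2 was at 239 CPM in these barcodes, 4.59 times its level in kept cells (4.19 to 5.02), and Lss at 40.1, 4.36 times (3.46 to 5.43). Hmgcs1 was at 208 (3.78 times, 3.43 to 4.15), Insig1 at 54.1 (2.90 times, 2.39 to 3.49) and Sqle at 120.3 (2.73 times, 2.40 to 3.09). Cyp51 was at 97.7 (1.32 times, 1.15 to 1.51), Idi1 at 39.2 (0.979 times, 0.782 to 1.21) and Fdft1 at 26.6 (0.772 times, 0.587 to 0.999). Thus 5 of the 8 genes were higher by 1.5-fold or more, beside 53.7% of 12966 genes, and the median gene was at 1.64. The nuclear transcript Malat1 was at 67709 in these barcodes and at 5481 in kept cells. Markers of cell groups differed too: C1qa was at 352 against 1281 in kept cells and Col3a1 at 2881 against 1059. Shisal2b and Rhox5 were at 0.618 and 0.685 times their level in kept cells. The parts of Malat1 and of the mix of cells in the result were not tested.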

How the results depend on the processing

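The ratio of tumor clusters to macrophage-like cells kept its count of 7 genes past 1.5-fold, or a count of 6 to 8, under all 19 alternatives, with the median ratio of the 8 genes between 2.98 and 4.68. Smaller contrasts moved. For Cxcl9 against Arg1 and Spp1 cells (4 genes), the count was 2 with a minimum of 500 genes, at resolution 0.3, with median scaling or with variable genes by variance above the trend (chosen after seeing the data), 1 with doublets kept, and 0 when thinned to 1000 UMIs, where no gene was measurable, or at a fold of 2. For cycling against Malat1-poor cells (5), it was 0 with 3000 variable genes, 1 when thinned, and 2 with median scaling or at a fold of 2. For monocyte-like against macrophage-like cells (3), it was 1 at resolution 0.8, with 20 components or when thinned, 0 at a fold of 2 and 5 with variance above the trend. Col3a1-low against Col3a1-high cells (0) gave 3 with equal weight per cell and 3 when thinned. T and NK-like against macrophage-like cells (5) gave 0 when thinned, with no gene measurable, and 1 at a fold of 2. Fibroblast-like against tumor cells (5) gave 3 at a fold of 2. Of the 56 levels, 37 stayed within their intervals with equal weight per cell, 21 when thinned and 31 of 40 at resolution 0.3. Of the 10 genes most like the sum, 6 were shared within Col3a1-high, 6 within cycling and 4 within Malat1-poor cells. Either longer form of the sterol motif, with an A before the core, matched 0 of the 6 promoters. The cause of these changes was not tested. Settings that left a group with under 50 cells, or without a cluster of its name, gave no value: the Malat1-poor split under a 10% or no mitochondrial limit, doublets kept, resolution 0.3 and variance above the trend, the monocyte-like group with doublets kept, 3000 variable genes and another seed, the Col3a1 split at resolution 0.3, and fibroblast-like cells when thinned or under variance above the trend. No paired analysis was possible because the data are 1 library. Monocyte-like and T and NK-like cells held 5 to 69 UMIs a gene. The interval of the ratio to macrophage-like cells took in 1 for 4 of 7 genes in each group. For those genes a difference could not be told from counting error at this depth. For the other 3 in each group the interval lay above 1.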
